A study of Mus musculus with 6 samples.

Results

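T lineage receptor, signalling and Notch pathway genes were followed in mouse pro-B cells, the early B lymphocyte precursors of bone marrow. The list holds 34 genes, named for their known roles in T cells and Notch signalling, with no threshold on their values. A gene was read from the probe sets annotated with its symbol alone, and where there were several the one with the highest mean over all arrays was used. This gave 31 members of the list, of 17097 genes measured. Lck, Tcf7 and Tox had no named probe set and are not analysed here. Affymetrix perfect-match arrays were hybridised with RNA of 3 wild-type samples and 3 samples labelled HDAC7 deficient, which came from mice with a conditional Hdac7 allele. HDAC7 is a class IIa histone deacetylase, an enzyme that represses genes together with transcription factors, and the study asked what its loss does to B cell precursors. All cells were sorted as B220+CD43+IgM- and their RNA was amplified before labelling. The labels and protocols at hand name no strain, age, sex or Cre driver and do not say whether mice were pooled, so the p-values measure the spread between these samples.

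T and B lymphocytes arise from shared progenitors, and the Notch pathway is the main switch between their fates. A Notch receptor bound by its ligand on a neighbouring cell is cleaved, and its freed inner part joins the DNA-binding protein RBPJ to turn on genes such as Hes1 and Dtx1. In the thymus this signal through Notch1 starts the T cell programme, led by the factors TCF1 (Tcf7), GATA3 and BCL11B, whereas B cell precursors in the marrow develop with little of it. The T cell receptor signals through the CD3 chains and the zeta chain (Cd247), aided by the coreceptors CD4 and CD8 and by the kinases LCK and ZAP70.

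The arrays were not alike, and this bears on every value that follows. Wild-type replicate 3 correlated with the others at 0.70 to 0.81 over probe sets, and its values were compressed, with an interquartile range of 1.61 against 2.47 to 3.28. Its Actb signal at the 3′ end exceeded that in the middle of the transcript by 1.69, against 0.16 to 0.26 on the others, a difference that rises as RNA degrades. Xist, the RNA of the inactive X chromosome of female cells, was 8.51 on wild-type replicate 3 and 11.40 and 11.27 on HDAC7-deficient replicates 2 and 3. It was 4.87 to 5.38 on the other 3 arrays (HDAC7-deficient replicate 1 and wild-type replicates 1 and 2). Means of the 18 hybridisation control probe sets followed the same line, with 9.99 to 10.78 where Xist was high and 8.64 to 9.17 where it was low. Hdac7 itself was 9.06, 9.48 and 7.31 on the wild-type arrays and 9.95, 9.54 and 9.27 on the arrays labelled HDAC7 deficient, a log2 change of 0.97 ± 0.59 (SE, limma adjusted p = 0.399). Of 2 Hdac7 probe sets this is the brighter, and the other is not reported here. Which part of the gene was deleted is not known here, so this probe set checks no label, and every direction is that of the arrays as labelled.

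The sorted cells carried the defining genes of pro-B cells, but also genes listed as markers of other cells. As a measure of dim signal, the 95th percentile of 41 olfactory receptor genes was taken on each array. It lay between 5.56 and 6.34 on 5 arrays and at 7.93 on wild-type replicate 3. All 14 measured pro-B cell markers exceeded it on those 5 arrays, among them Vpreb1, Cd79a and Rag1, and so did 10 of 11 natural killer and innate lymphoid markers, 8 of 8 plasmacytoid dendritic cell markers, 10 of 10 neutrophil markers and 6 of 9 macrophage and monocyte markers. Of 7 measured T cell markers, some of them members of the list, 4 did. Tcra, the T cell receptor alpha gene, and Themis, a signalling protein of thymocytes, did so on no array. Of the 10 plasmacytoid dendritic cell markers listed, Siglech and Bst2 were not measured. A listed marker need not be confined to its cell type. In such bulk samples fewer cells of a type and less RNA per cell cannot be told apart.

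No T lineage or Notch gene passed the test between the groups after adjustment over all genes. In HDAC7 deficient, 20 of the 31 members had a higher mean and 11 a lower one (median log2 change 0.39), whereas 48.0% of all genes were higher and their median was -0.032. None passed a limma adjusted p of 0.05 (members' adjusted p from 0.377 to 0.965), as 0% of all genes did. At an unadjusted p under 0.05 there were 2 members higher, Hes1 and Cd28, against 3.52% of all genes, and 1 lower, Cd6, against 9.14%. These 3 of 31 (9.68%, against 12.7% of all genes in either direction) became 0 without wild-type replicate 1 (5.38% of all genes) and 12, or 38.7%, without wild-type replicate 2 (33.9% of all genes). Without HDAC7-deficient replicate 2 or 3 there was 1 (3.66% and 7.55% of all genes). Quantile normalization of the deposited values turned this balance over all genes, from 602 higher and 1563 lower to 778 and 639, and median centring gave 887 and 1054. The 3 arrays of each group did not overlap for 7 members that were higher, where 9.45% of all genes did so, and for 3 that were lower, where 16.8% did. The higher ones were Cd3e, Cd28, Cd96, Satb1, Notch1, Notch3 and Hes1, and the lower ones Icos, Cd6 and Bcl11b. With wild-type replicate 3 left out 18 of 31 were higher and the median was 0.21. Then 2 were higher and 1 lower at an unadjusted p under 0.05 (background 5.19% and 8.84%), again Hes1, Cd28 and Cd6, and 7 and 4 did not overlap (background 11.8% and 19%). Giving each array a weight estimated from its own scatter made 26 of the 31 pass, together with 10932 of all genes, but that estimate stopped before it converged and put nearly all weight on wild-type replicate 1.

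**Figure D1:**
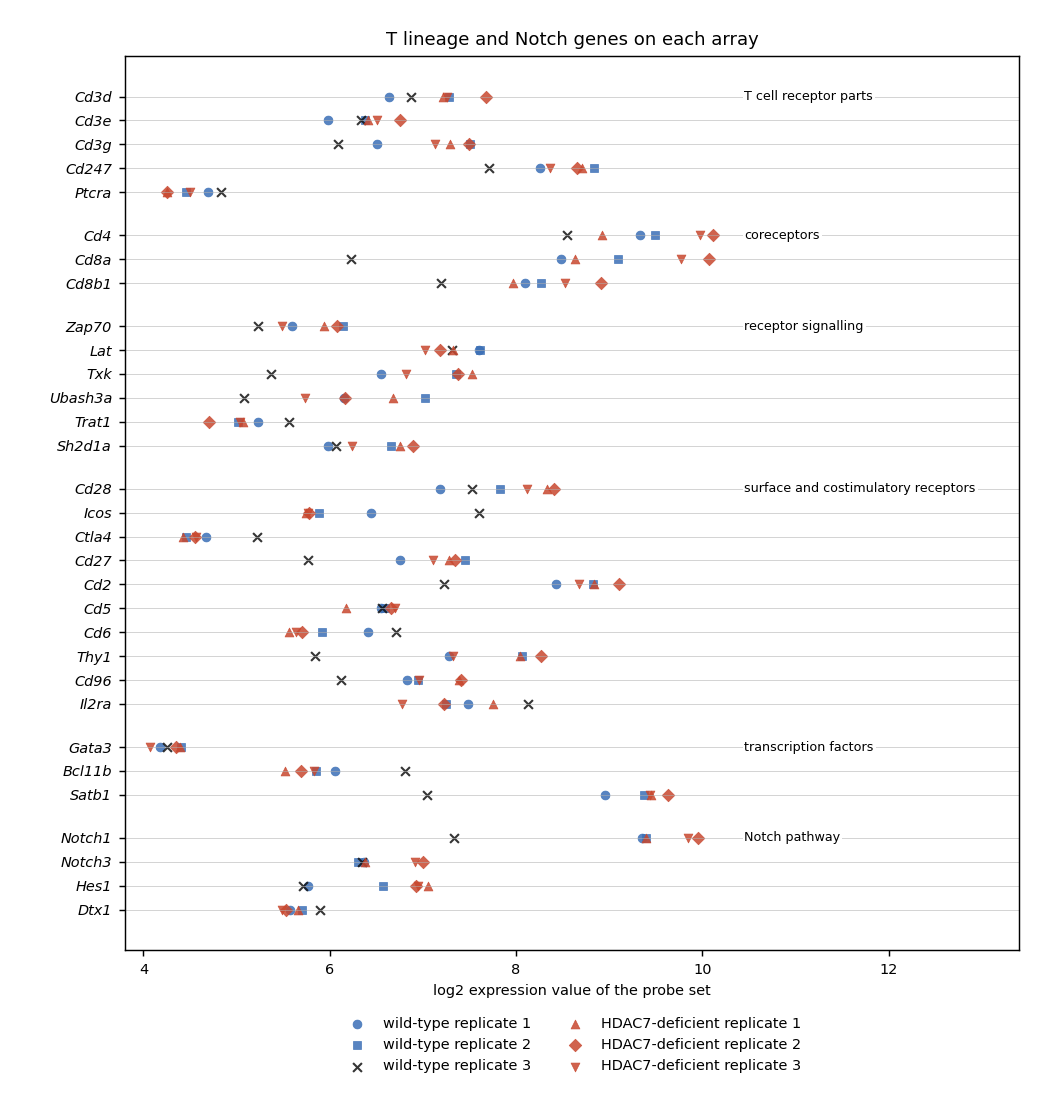
Log2 value of each of the 31 measured genes (rows, grouped by role) on each array, with wild-type arrays in blue or as a black cross and HDAC7-deficient arrays in red. The cross, wild-type replicate 3, is the lowest point for Cd8a (6.23), Notch1 (7.33) and Satb1 (7.04) and the highest for Icos (7.60) and Bcl11b (6.81), while the 3 red points of Hes1 lie at 6.93 to 7.06, right of all wild-type points.

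No gene of the CD3 chains passed the test, and all 3 had higher means in HDAC7 deficient. Cd3d, Cd3e and Cd3g encode the chains that carry the T cell receptor's signal into the cell, and lie side by side on chromosome 9, Cd3g and Cd3d with start sites 1355 bases apart and reading away from each other. Their promoters are shown with that of Cd8a, the member with the largest difference between group means. Each run is the 250 bases before a start site that RefSeq lists for the gene, 5′ to 3′ on the gene's strand, on GRCm38.p6. Capitals mark E boxes (CANNTG, searched on both strands, which for this motif give the same places), the sites of E proteins such as E2A, a family that both B and T cell precursors use. The positions are chr9:45009612-45009861 (minus strand) for Cd3e, chr9:44981536-44981785 (plus strand) for Cd3d, chr9:44980432-44980681 (minus strand) for Cd3g and chr6:71373177-71373426 (plus strand) for Cd8a.

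Cd3e: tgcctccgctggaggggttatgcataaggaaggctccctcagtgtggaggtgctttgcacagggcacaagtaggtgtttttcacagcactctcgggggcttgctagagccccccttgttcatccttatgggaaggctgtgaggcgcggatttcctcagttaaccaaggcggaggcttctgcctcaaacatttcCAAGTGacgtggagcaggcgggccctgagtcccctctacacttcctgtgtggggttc
Cd3d: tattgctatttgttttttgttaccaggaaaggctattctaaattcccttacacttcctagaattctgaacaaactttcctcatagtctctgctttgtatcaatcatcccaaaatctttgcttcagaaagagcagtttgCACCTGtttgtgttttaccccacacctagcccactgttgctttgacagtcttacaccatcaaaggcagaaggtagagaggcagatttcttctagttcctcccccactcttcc
Cd3g: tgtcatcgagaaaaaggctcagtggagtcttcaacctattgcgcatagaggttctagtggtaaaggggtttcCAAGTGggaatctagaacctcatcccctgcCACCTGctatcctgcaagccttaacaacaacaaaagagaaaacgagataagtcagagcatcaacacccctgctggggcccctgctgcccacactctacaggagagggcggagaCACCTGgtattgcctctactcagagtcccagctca
Cd8a: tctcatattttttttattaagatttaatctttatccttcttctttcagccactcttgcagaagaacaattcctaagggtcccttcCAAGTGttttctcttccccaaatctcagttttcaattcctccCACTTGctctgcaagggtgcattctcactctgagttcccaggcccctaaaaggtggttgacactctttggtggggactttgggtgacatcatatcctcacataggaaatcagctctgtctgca

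The Cd3g stretch held 3 E boxes, that of Cd8a 2, and those of Cd3e and Cd3d 1 each. Promoter sequences were at hand for 24 of the 34 listed genes, 33 promoters in all, and 18 of them (54.5%) held an E box, against 66.2% of all 32851 promoters of that length. The RBPJ motif TGGGAA was in 11 of the 33 (33.3%, against 21.6% of all), with 1 copy each in Cd3e, Cd3g and Cd8a. GATA motifs (AGATAA) were in 2 (6.06% against 9.99%), TCF1 motifs (CTTTGA) in 5 (15.2% against 13.8%) and RUNX motifs (TGTGGT) in 5 (15.2% against 14.0%). The motif of MEF2, the factor family that recruits class IIa deacetylases, was in none, against 2.92% of all. These matches describe letters in a window. Hes1, Cd28, Cd6, Cd4, Cd8b1, Cd2, Icos, Thy1, Sh2d1a and Tox were not among the promoters used.

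On the arrays, Cd3d read 6.64, 7.28 and 6.88 in wild type and 7.22, 7.68 and 7.26 in HDAC7 deficient, a change of 0.45 ± 0.28 (limma adjusted p = 0.400). The groups overlapped, since wild-type replicate 2 lay among the HDAC7-deficient arrays. Cd3e read 5.98, 6.38 and 6.33 against 6.41, 6.75 and 6.50, a change of 0.32 ± 0.22 (adjusted p = 0.416). Its groups stood apart by only 0.030 between wild-type replicate 2 and HDAC7-deficient replicate 1, and its values exceeded the olfactory percentile on 4 of the 5 arrays. For Cd3g the values were 6.51, 7.50 and 6.09 against 7.29, 7.50 and 7.13, a change of 0.61 ± 0.39 (adjusted p = 0.406), which was 0.30 without wild-type replicate 3. Wild-type replicate 2 and HDAC7-deficient replicate 2 thus read alike. Cd247, which encodes the zeta chain that natural killer cells also use, read 8.26, 8.83 and 7.71 against 8.70, 8.66 and 8.37. Its change of 0.31 ± 0.36 was 0.029 without wild-type replicate 3 and -0.17 after quantile normalization, and its 3 further probe sets gave 0.0032 to 0.27. Ptcra, the pre-T cell receptor chain of thymocytes, exceeded the olfactory percentile on no array and read 4.69, 4.46 and 4.84 against 4.26, 4.26 and 4.50.

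The coreceptor genes had higher means in HDAC7 deficient but spread widely within each group, and none passed the test. Cd8a read 8.48, 9.10 and 6.23 in wild type and 8.63, 10.07 and 9.77 in HDAC7 deficient, a change of 1.56 ± 0.78 (limma adjusted p = 0.380). Its partner Cd8b1 read 8.10, 8.27 and 7.20 against 7.96, 8.91 and 8.53, a change of 0.61 ± 0.41 (adjusted p = 0.415). Cd4 read 9.33, 9.49 and 8.54 against 8.92, 10.12 and 9.97, a change of 0.55 ± 0.45 (adjusted p = 0.461). In all 3 genes wild-type replicate 3 was lowest, HDAC7-deficient replicates 2 and 3 were highest, and HDAC7-deficient replicate 1 fell among or below wild-type replicates 1 and 2. Among the arrays low in Xist, whose HDAC7-deficient side is replicate 1 alone, the changes were -0.16 for Cd8a, -0.22 for Cd8b1 and -0.49 for Cd4. Among those high in Xist, whose wild-type side is replicate 3 alone, they were 3.69, 1.52 and 1.50. Leaving that array out of the full comparison gave 0.70, 0.28 and 0.26. Two-sided limma interaction terms of the division and the genotype had adjusted p-values of 1.17e-05, 0.00725 and 1.00e-04 for these 3 genes and passed for 27.3% of all genes. They rest on these 2 single arrays, each assumed to vary like the arrays of the other sides. The further probe sets of Cd8a (0.80 and 0.84) and of Cd4 (1.55) leaned the same way.

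Mouse plasmacytoid dendritic cells carry B220 and can also carry CD4 and CD8 alpha, so their markers are given beside these genes. All 8 measured markers were higher in HDAC7 deficient, with a median change of 1.41, or 0.47 without wild-type replicate 3. With all genes ranked by mean value and divided into 4 bands, 7 of the 8 lay in the brightest and 1 in the next. In these bands 89.6% and 66.1% of all genes were higher. The median changes of all genes there were 0.56 and 0.25, or 0.058 and 0.082 without wild-type replicate 3. The mean log2 value of the 8 markers was 8.96, 9.47 and 6.97 on the wild-type arrays and 9.40, 10.19 and 10.05 on the HDAC7-deficient arrays, the same order within each group as for Cd8a. The RNA sensor gene Tlr7 read 6.82, 7.61 and 7.14 against 7.68, 9.21 and 9.16, and Klk1, a kallikrein whose probes may also match related genes, 6.88, 8.09 and 5.35 against 7.96, 9.25 and 9.31. Natural killer markers averaged 8.34, 8.75 and 7.03 against 8.63, 8.91 and 8.49 (median change 0.80, or 0.13 without wild-type replicate 3). Macrophage and monocyte markers averaged 7.41, 7.47 and 7.04 against 7.77, 8.24 and 7.94, also in the order of Cd8a within each group. Neutrophil markers averaged 10.59, 10.42 and 8.98 against 10.43, 11.01 and 11.01. Pro-B cell markers averaged 9.90, 10.13 and 8.71 against 10.34, 9.58 and 9.54, with 10 of 14 higher (median 0.18), or 3 of 14 without wild-type replicate 3 (median -0.25). Of these 14, 12 lay in the brightest band and 9 of the 12 were higher, against 89.6% of all genes there. Without wild-type replicate 3 that share of all genes was 59.9%. None of the measured markers of these lists was below the olfactory percentile on all arrays. Their part in the coreceptor values was not tested.

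**Figure D2:**
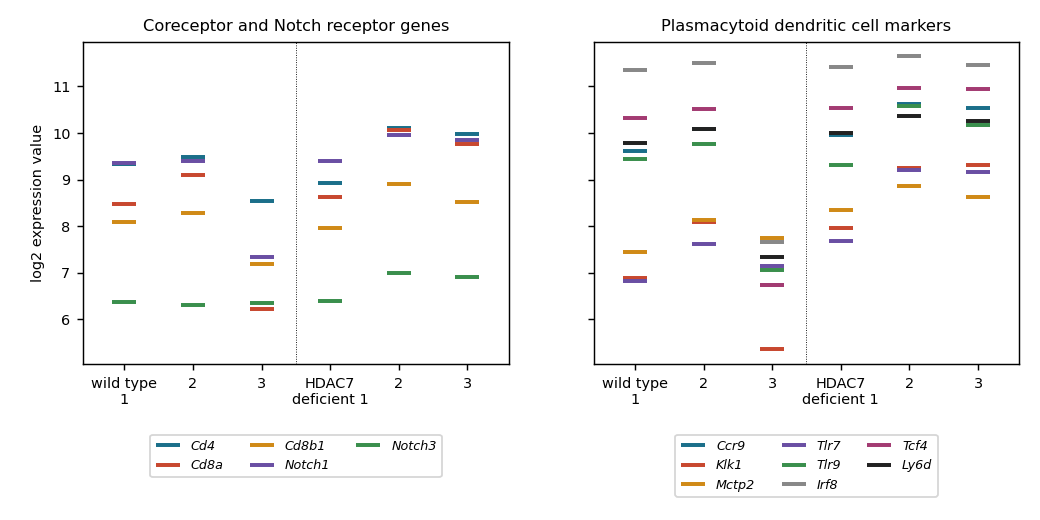
Log2 values of Cd4, Cd8a, Cd8b1, Notch1 and Notch3 (left) and of the 8 plasmacytoid dendritic cell markers (right) on each array, 1 bar per gene. HDAC7-deficient replicates 2 and 3 lie highest for every gene drawn other than Irf8, as for Cd8a at 10.07 and 9.77 and Tlr7 at 9.21 and 9.16, while HDAC7-deficient replicate 1 lies near wild-type replicates 1 and 2.

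Signalling genes downstream of the receptor differed in either direction, and none passed the test. Of the 6 measured, 4 were higher and 2 lower, with a median change of 0.14, or -0.11 without wild-type replicate 3. Lat, the adaptor that gathers signalling proteins below the receptor, read 7.60, 7.61 and 7.31 in wild type and 7.32, 7.18 and 7.02 in HDAC7 deficient, a change of -0.33 ± 0.24 (limma adjusted p = 0.436). Its groups overlapped only through wild-type replicate 3, and without that array they did not, with a change of -0.43 ± 0.22 (adjusted p = 0.407). Zap70, the kinase recruited to the CD3 chains, read 5.22 to 6.14 in wild type and 5.49 to 6.08 in HDAC7 deficient, a change of 0.18 ± 0.29. Txk, a Tec family kinase, read 6.55, 7.36 and 5.37 against 7.52, 7.38 and 6.82, a change of 0.81 ± 0.51 that was 0.29 without wild-type replicate 3. Sh2d1a, the adaptor of SLAM receptors in T and natural killer cells, had a change of 0.39 ± 0.29, or 0.31. Ubash3a, a damper of receptor signalling, gave 0.11 ± 0.50 with all arrays, -0.40 without wild-type replicate 3, and -0.29 on its other probe set. Trat1, a receptor-associated adaptor, exceeded the olfactory percentile on no array.

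Among surface and costimulatory receptors Cd28 was higher and Cd6 lower at an unadjusted p under 0.05. Cd28, the main costimulatory receptor of T cells, read 7.18, 7.83 and 7.52 in wild type and 8.33, 8.40 and 8.12 in HDAC7 deficient. The groups did not overlap, and the change of 0.77 ± 0.29, a 1.71-fold difference, had an unadjusted p of 0.0320 and a limma adjusted p of 0.377. It was 0.78 ± 0.26 without wild-type replicate 3 and 0.30 after quantile normalization. Arrays low in Xist gave 0.82 and those high in Xist 0.74. The other Cd28 probe set gave 0.88 ± 0.32. Cd6, a receptor on T cells that binds the adhesion molecule ALCAM, read 6.41, 5.91 and 6.71 against 5.56, 5.70 and 5.64. Its groups did not overlap either, and its change of -0.71 ± 0.24 had an unadjusted p of 0.0224 and an adjusted p of 0.377. Without wild-type replicate 3 it was -0.53 ± 0.20, and Cd6 exceeded the olfactory percentile on 3 of the 5 arrays.

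Cd96, an adhesion receptor of T and natural killer cells, read 6.83, 6.94 and 6.12 against 7.39, 7.41 and 6.96. The groups were separate by 0.014, with a change of 0.62 ± 0.30 (limma adjusted p = 0.378) that was 0.36 without wild-type replicate 3. Icos, a costimulatory receptor of activated T cells, read 6.44, 5.89 and 7.60 against 5.74, 5.78 and 5.76. Its HDAC7-deficient arrays lay within 0.035 of each other, below all wild-type arrays, and its change of -0.88 ± 0.42 (adjusted p = 0.377) was -0.40 without wild-type replicate 3. The other 2 Icos probe sets gave -0.56 and -0.38 with all arrays, and -0.062 and -0.052 without that array. Icos exceeded the olfactory percentile on 4 of the 5 arrays, and lay below it on HDAC7-deficient replicate 3 and on wild-type replicate 3. Adhesion receptor Cd2 had a change of 0.71 ± 0.46, Thy1, the surface marker of mouse T cells, 0.82 ± 0.58 and the TNF receptor family member Cd27 0.59 ± 0.43. These became 0.25, 0.21 and 0.14 without wild-type replicate 3, which read lowest for all 3 genes. Il2ra, the interleukin 2 receptor alpha chain, which also marks later B precursors, had a change of -0.37 ± 0.37, and Cd5, a receptor that dampens signalling, of -0.060 ± 0.23. Ctla4, an inhibitory receptor of T cells, exceeded the olfactory percentile on no array.

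Of the transcription factors, the measured ones that commit cells to the T lineage were dim. Gata3 read 4.17, 4.41 and 4.25 in wild type and 4.39, 4.34 and 4.07 in HDAC7 deficient, above the olfactory percentile on no array, with a change of -0.0099 ± 0.14 (95% interval from -0.35 to 0.33). Bcl11b exceeded it on 2 of the 5 arrays and read 6.06, 5.85 and 6.81 against 5.52, 5.69 and 5.83. Its groups were apart by 0.019, and the change of -0.56 ± 0.28 (limma adjusted p = 0.380) was -0.27 without wild-type replicate 3, while its 3 further probe sets gave -0.26 to 0.070. Satb1, a chromatin organiser of lymphoid progenitors and thymocytes, read 8.95, 9.38 and 7.04 against 9.45, 9.64 and 9.43. Its change of 1.05 ± 0.61 (adjusted p = 0.391) was 0.34 without wild-type replicate 3, and its other probe sets gave 0.60 and 0.021.

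In the Notch pathway the target gene Hes1 had the smallest p-value of all members. Hes1 encodes a repressor that Notch signalling switches on directly, though other signals also induce it. It read 5.77, 6.57 and 5.72 in wild type and 7.06, 6.93 and 6.95 in HDAC7 deficient. Hes1 exceeded the olfactory percentile on 4 of the 5 arrays, and wild-type replicates 1 and 3 lay below it. The groups did not overlap, and the HDAC7-deficient arrays lay within 0.13 of each other. The change of 0.96 ± 0.28, a 1.95-fold difference, had an unadjusted p of 0.0112 and a limma adjusted p of 0.377. Hes1 was higher by 0.81 ± 0.27 without wild-type replicate 3, by 0.89 and 1.22 on the arrays low and high in Xist, and by 1.10 after quantile normalization. Dtx1, an E3 ligase gene that is another direct target, read 5.57, 5.70 and 5.90 against 5.66, 5.53 and 5.49, a change of -0.16 ± 0.17 (95% interval from -0.56 to 0.25), and exceeded the olfactory percentile on 1 of the 5 arrays.

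Receptor gene Notch1 read 9.35, 9.39 and 7.33 in wild type and 9.39, 9.96 and 9.84 in HDAC7 deficient, a change of 1.04 ± 0.60 (limma adjusted p = 0.388). HDAC7-deficient replicate 1 lay level with wild-type replicates 1 and 2, so that the groups stood apart by only 0.00063. The change was 0.023 among the arrays low in Xist and 0.36 without wild-type replicate 3. On the second Notch1 probe set the groups overlapped, with 6.84, 7.28 and 6.97 against 7.27, 7.63 and 7.28. Its change was 0.36 ± 0.26, or 0.33 without wild-type replicate 3. Notch3, a receptor that thymocytes express, read 6.37, 6.30 and 6.34 against 6.38, 7.00 and 6.91, a change of 0.43 ± 0.24 (adjusted p = 0.387). Its wild-type arrays spread over 0.069, HDAC7-deficient replicate 1 lay 0.012 above them, and only replicates 2 and 3 were clearly higher, as for the coreceptors. The second Notch3 probe set gave 4.55, 4.83 and 4.44 against 4.91, 5.74 and 5.47, a change of 0.77 ± 0.24. That second probe set was dim, above the olfactory percentile on HDAC7-deficient replicate 2 alone. The first has the suffix that Affymetrix gives to probes shared by several transcripts.

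Among the other genes of these pathways none passed a limma adjusted p of 0.05. Most of them were bright, and brighter genes were more often higher on these arrays. Genes were ranked by mean value and divided into 4 bands of nearly equal size. From the dimmest to the brightest band 13.6%, 22.9%, 66.1% and 89.6% of all genes were higher, and over all bands 3.52% were higher and 9.14% lower at an unadjusted p under 0.05. Of 34 further Notch ligand, receptor, processing and target genes 22 were higher (median 0.35, or 0.089 without wild-type replicate 3), with 3 higher and 2 lower at an unadjusted p under 0.05. In the 2 brighter bands 19 of 26 were higher. The ubiquitin ligase Itch had a change of 0.73 ± 0.21 and Dtx3 of 1.42 ± 0.55, while Heyl, a target related to Hes1, had -0.95 ± 0.37. The other 2, Mib2 with 0.86 ± 0.34 and the ligand Jag1 with -1.04 ± 0.41, were named after their values were seen. Of 25 further receptor signalling genes 20 were higher (median 0.30, or 0.14), and 19 of 23 in the 2 brighter bands. At an unadjusted p under 0.05 there were 3 higher and none lower. The 3 were Malt1, a protease that links antigen receptors to NF-kB, with 1.20 ± 0.31, the adaptor Fyb with 1.23 ± 0.42 and the adaptor Lcp2 (SLP-76) with 0.78 ± 0.30. All 3 also serve blood cells outside the T lineage.

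The 22 further transcription factor genes were listed for roles in T cells, though some, such as Spi1, also serve other cells. Of the 22, 20 were higher (median 0.51, or 0.12 without wild-type replicate 3). In the 2 brighter bands 19 of 20 were higher, where 66.1% and 89.6% of all genes were. None of the 22 had an unadjusted p under 0.05 in either direction. Runx3, which shapes CD8 T and natural killer cells, had the smallest p there (0.0623), with a change of 1.49 ± 0.67, or 0.71, followed by Id3 with 0.99 ± 0.51 and Spi1, the myeloid and early lymphoid factor PU.1, with 0.80 ± 0.43. Of 20 further T cell surface receptors 14 were higher (median 0.18, or 0.17), and 11 of 12 in the 2 brighter bands, with 2 higher and 1 lower at an unadjusted p under 0.05. S1pr1, the receptor by which lymphocytes leave tissues, read 6.73, 7.14 and 6.58 against 8.04, 7.68 and 7.66, a change of 0.98 ± 0.27. Cd69, an early activation antigen that opposes it, read 4.46, 5.40 and 6.34 against 6.29, 9.24 and 9.49. Its change of 2.94 ± 0.90 was the largest of these 3, though wild-type replicate 3 overlapped HDAC7-deficient replicate 1. All wild-type values of Cd69 lay below the olfactory percentile. Pdcd1, an inhibitory receptor, had -0.50 ± 0.17 and exceeded the olfactory percentile on no array.

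How far a member's difference depended on wild-type replicate 3 went with its level. In the 4274 genes with the highest means that array lay below the mean of the other wild-type arrays by a median difference of -1.36, and in the 4275 with the lowest means above it by 0.51. Median changes between the groups over all genes were 0.56 and -0.30 in these bands, and 0.058 and -0.11 without the array. All 7 members in the highest band were higher in HDAC7 deficient (median 0.71, or 0.28 without that array), as were 89.6% of all genes there. None of the 4 in the lowest band was (median -0.30, or -0.12), as against 13.6% of all genes. In the lower and the upper band between them, of 4274 genes each, 4 of 8 and 9 of 12 members were higher, against 22.9% and 66.1%. Hes1, Cd28 and Notch3 differed without the array by 0.81, 0.78 and 0.43, and Cd3d and Cd3e by 0.43 and 0.38.

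**Figure D3:**
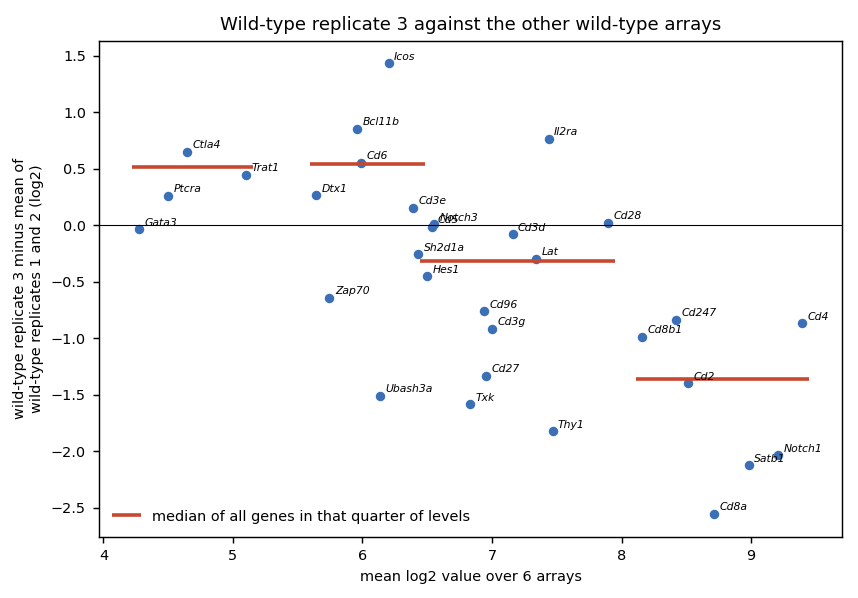
Each point is 1 of the 31 genes, placed by its mean log2 value over the 6 arrays (x axis) and by wild-type replicate 3 minus the mean of wild-type replicates 1 and 2 (y axis, log2), and the red lines are medians of all genes in each of 4 equal bands of level. Points of high mean lie low, with Cd8a at -2.56 and Notch1 at -2.04, whereas Icos lies at 1.43 and Cd28 at 0.020.

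**Figure D4:**
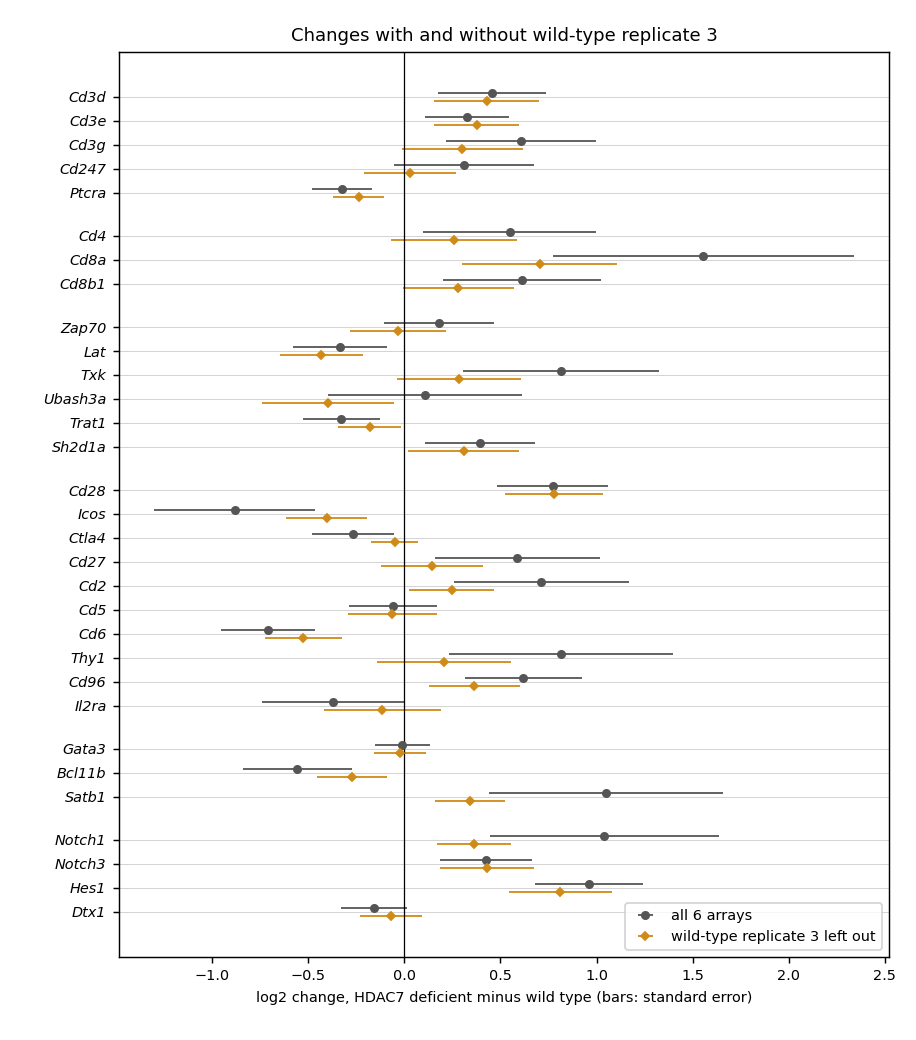
Log2 change of each gene between HDAC7 deficient and wild type (x axis) with all 6 arrays (grey circles) and with wild-type replicate 3 left out (orange diamonds), with bars of 1 standard error. The diamonds of Satb1, Notch1 and Cd8a lie at 0.34, 0.36 and 0.70 against circles at 1.05, 1.04 and 1.56, while those of Hes1, Cd28 and Notch3 stay close to their circles.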

How the data were processed

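The authors deposited 1 log2 value per probe set and array; how they normalized them, and with which software, is not given in the sources used here. That these are log2 values follows from their range. Labelling used 25 ng of total RNA after whole transcriptome amplification, per the labels' protocols. Of 45141 probe sets 104 were controls, and 28898 of the other 45037 had 1 gene symbol, 28689 of them updated by Entrez number through a RefSeq table of GRCm38.p6. Each of 17097 genes was read from its brightest probe set. Both groups entered 1 fit in limma 3.58.1 under R 4.3.3 (moderated variance with an intensity trend, two-sided, Benjamini-Hochberg adjustment over all genes, threshold 0.05, no filter on dim genes), and every p-value in the text is from limma. The fit was tested on simulated data. Changes are HDAC7 deficient minus wild type ± standard error. With 3 arrays a group an exact permutation test has 0.1 as its smallest p, and the number of arrays limits precision.

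Members, lists and tests were chosen with earlier results of these data known. Full values were given for members at an unadjusted p under 0.05, without overlap, of the CD3 complex, of T cell commitment or of Notch, and for up to 3 genes per pathway list by smallest p; the other values of single members show where they stand in their role. The olfactory comparison sets probe sets side by side and only marks dim signal. The Xist division took the middle of the range of Xist values. Alternatives tried: 1 array left out at a time, the replicate number or the Xist division as a block, other scalings, dim gene filters, variance models and probe set choices. Figures were drawn with matplotlib 3.10.9.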

Additional observations from a re-analysis of the deposited data

Results flagged for a closer look

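For 8 of the 31 genes (25.8%) limma's interaction term between genotype and the Xist division had an adjusted p under 0.05 over all genes, as it did for 27.3% of all genes. The change on the Xist-high arrays minus that on the Xist-low arrays was 3.85 for Cd8a, 2.55 for Notch1, 2.21 for Satb1, 1.99 for Cd4, 1.74 for Cd8b1, 1.45 for Cd2, -1.41 for Icos and -1.52 for Il2ra. The Xist-high side holds no wild-type array but replicate 3 and the Xist-low side no HDAC7-deficient array but replicate 1. The division and these 2 single arrays cannot be told apart, and each was assumed to vary like the arrays of the other sides. For Cd8a, Cd4 and Cd8b1 HDAC7-deficient replicates 2 and 3 also lay above HDAC7-deficient replicate 1, by 1.29, 1.12 and 0.75 on average, and for Notch1 and Satb1 by 0.51 and 0.085.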

How the results depend on the processing

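No member passed adjustment under any alternative other than array weights, which gave 26 members and 10932 genes, or 23 and 8452 when estimated gene by gene, an alternative chosen after seeing the data. Without those, all genes past the threshold numbered 1 (Hspa1b) with the replicate block and 4 (Fos, Fosb, Jun and H1f2) when the Xist division was a block and wild-type replicate 3 was left out, where the members' median change was 0.088 (0.21 to 0.59 with 1 array left out). Same-numbered arrays deviated together by correlations of 0.10, 0.21 and 0.48 and not every array did best with its own number, so the numbers were not taken as pairs; under the replicate block 3 members had an unadjusted p under 0.05 (9.68%, against 20.6% of all genes). That count was 10 with a block for the Xist division (32.3% against 42.6%), 27 and 25 with the array weights (87.1% and 80.6% against 67.6% and 56.2%), and with 1 array left out 0 (without wild-type replicate 1, 5.38% of all genes) to 12 (without wild-type replicate 2, 38.7% against 33.9%). Members without overlap ran from 7 to 16 higher and 3 to 6 lower with 1 array left out. The 16 and 6 without wild-type replicate 2 are 51.6% and 19.4%, against 26.5% and 34.8% of all genes, and the 11 and 6 without HDAC7-deficient replicate 1 are 35.5% and 19.4%, against 14.2% and 20.6%. The lower ones were 1 with the mean over probe sets (3.23% against 16.8%) and 0 of 19 without the dimmest 50% of genes (5.76% of all genes). Interactions with the Xist division numbered 13 after quantile normalization (41.9% against 39.7%) and, with 1 array left out, 4 (without HDAC7-deficient replicate 2, 12.9% against 17.2%) to 14 (without wild-type replicate 1, 45.2% against 45.5%).

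Of 31 members 18 kept their sign throughout. Without wild-type replicate 3 and with the Xist block the changes turned to -0.49 for Cd4, -0.16 for Cd8a, -0.22 for Cd8b1, 0.39 for Il2ra, 0.10 for Gata3 and 0.030 for Dtx1, and with the block alone to 0.028 for Gata3. Quantile normalization gave Cd247 -0.17, Trat1 0.0096, Ctla4 0.034, Cd5 0.00047, Gata3 0.20 and Dtx1 0.15, and median centring Cd5 0.035 and Gata3 0.085. Array weights gave Cd5 0.037 and Gata3 0.13, or gene by gene Cd5 0.039, Gata3 0.12 and Ubash3a -0.027. Ubash3a was -0.093 as the mean over probe sets and -0.29 on its other probe set, 1 probe set each turned Trat1 to 0.010 and Bcl11b to 0.070, and with 1 array left out Zap70 ran from -0.033 to 0.42, Ubash3a from -0.40 to 0.58, Cd5 from -0.15 to 0.11 and Gata3 from -0.073 to 0.091. The causes were not tested.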
